A study of Mus musculus with 24 samples.

Results

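The MEF2 transcription factor genes Mef2a, Mef2b, Mef2c and Mef2d and the class IIa histone deacetylase genes Hdac4, Hdac5 and Hdac9 were followed across hippocampal arrays of FoxO6 mutant and wild-type (WT) mice. These 7 genes were taken by symbol from a table of 19938 genes, and 6 of them were measured. The 7 were chosen with earlier results of these data known. Mef2b had 0 probes of its own: its 1 probe on the platform carries 3 gene symbols, so no value is given for it. The study had 24 Affymetrix Mouse Gene 1.0 ST arrays, 6 in each group, of RNA from hippocampi dissected out of brain sections. In the mutant learning group, homozygous FoxO6 null males (FoxO6 -/-) explored a pair of identical new objects for 10 min and were killed 60 min later. The WT learning group (FoxO6 +/+ males) went through the same task. Both learning groups had been handled daily and had been given 10 min in the empty arena 24 h before. The mutant basal and WT basal groups, of the same 2 genotypes, were housed singly for at least 3 days and not put through the task. The mice, all males, were 8 to 9 weeks old and their background was mixed (C57BL/6J-129sv). The labels do not describe how the null allele was made. The learning and basal groups thus differ in the task and, as described, in handling, in the arena and in housing, which cannot be told apart. Single housing is described for the basal groups only, so how the learning groups were housed is not known here. All learning arrays also come before all basal arrays in the sample order. Array processing, if it followed that order, cannot be told apart from state either. The arrays of a group are labelled biological replicates, but no label ties an array to 1 animal. The p-values therefore reflect only how much these samples vary, which may be technical.

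MEF2 proteins are MADS-box transcription factors that bind an A/T-rich element in DNA. In neurons, calcium entry during synaptic activity turns them on, and they take part in limiting the number of excitatory synapses. Class IIa deacetylases bind MEF2 and keep its target genes silent. When kinases such as the CaM kinases, protein kinase D or the salt-inducible kinases phosphorylate them, they bind 14-3-3 proteins and leave the nucleus. The phosphatase calcineurin acts on both MEF2 and the deacetylases. Much of this control acts on proteins already made, which arrays do not measure.

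The sequences just upstream of Mef2d, Hdac5 and Hdac4 are shown because these 3 genes differed between states by the probe with the highest mean. For Mef2d and Hdac4 the other probe went in the opposite direction, as given below. Each is the 250 bases before an annotated transcription start, read 5′ to 3′ on the gene's strand, from RefSeq (GRCm38.p6). The Mef2d stretch lies on the plus strand at chr3:88142122-88142371, and the Hdac5 and Hdac4 stretches lie on the minus strand at chr11:102230173-102230422 and chr1:92180342-92180591. Capitals mark a match to the consensus MEF2 element in Hdac5 and to TGACG, the core of the element bound by CREB, in Hdac4.
Mef2d: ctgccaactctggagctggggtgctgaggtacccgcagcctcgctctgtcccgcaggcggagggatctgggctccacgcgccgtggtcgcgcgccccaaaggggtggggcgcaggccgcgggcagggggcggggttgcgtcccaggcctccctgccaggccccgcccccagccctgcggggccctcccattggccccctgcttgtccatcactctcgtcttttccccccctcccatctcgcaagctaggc
Hdac5: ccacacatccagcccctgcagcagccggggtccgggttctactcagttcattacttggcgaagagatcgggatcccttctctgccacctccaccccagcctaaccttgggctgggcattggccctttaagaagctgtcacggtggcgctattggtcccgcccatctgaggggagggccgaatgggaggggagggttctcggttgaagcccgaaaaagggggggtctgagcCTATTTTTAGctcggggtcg
Hdac4: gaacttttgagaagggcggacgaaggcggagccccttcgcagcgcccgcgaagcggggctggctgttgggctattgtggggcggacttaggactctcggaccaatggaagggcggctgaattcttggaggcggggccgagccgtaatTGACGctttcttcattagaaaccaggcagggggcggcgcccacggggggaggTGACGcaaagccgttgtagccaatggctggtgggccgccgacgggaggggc
The Hdac5 match, CTATTTTTAG, lies 20 to 11 bases before the start. Matches to the MEF2 element, on either strand, were in 2.92% of the 32851 promoter stretches of this length, and Hdac5 was the 1 member among 7 with one. TGACG on either strand was in 17.8% of all stretches. It was found 103 to 99 and 51 to 47 bases before the Hdac4 start, and Hdac4 was the 1 member with it. The FoxO element GTAAACA, in 3.17% of all stretches, and the full CREB element TGACGTCA, which contains TGACG and was in 1.55%, were each in 0 of the 10 stretches annotated for the 7 members. CG pairs were many in Hdac4 (23), Mef2d (19) and Hdac5 (12), against a median of 6 over all stretches. Mef2a, whose RNA was not called between states, had 21, while the 3 stretches of Mef2c had 1, 6 and 4 and the 2 of Hdac9 had 0 and 2. A match describes the letters and does not show binding.

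None of the members lies on chromosome 4, which carries Foxo6 (120267078 to 120287261). In GRCm38.p6, Mef2a spans 67231163 to 67376456 on chromosome 7, Mef2c 83504017 to 83667079 on chromosome 13 and Mef2d 88141941 to 88172091 on chromosome 3. Hdac4 spans 91928779 to 92195702 on chromosome 1, Hdac5 102195747 to 102230172 on chromosome 11 and Hdac9 34047580 to 34917095 on chromosome 12. The stretch printed for Hdac4 belongs to a start inside this span, as does that of Mef2d.

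The genotype labels were checked with Foxo6 itself. Its log2 value, made by the authors with RMA (a summary of each probe set after background correction and quantile normalization), averaged 6.24 ± 0.15 in mutant learning and 6.87 ± 0.15 in WT learning arrays (SD, n = 6 each), and 6.30 ± 0.16 in mutant basal and 7.03 ± 0.20 in WT basal arrays. Mutant and WT arrays did not overlap in either state. Array medians lay between 6.16 and 6.30 over all probes, and arrays of 1 group correlated across genes at 0.991 to 0.997. Markers of CA1 pyramidal, granule and other neurons were present, among them Neurod6 (mean log2 10.18), Fibcd1 (8.65) and Prox1 (8.84).

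Of the MEF2 factors, Mef2d was lower after learning by its brighter probe and higher by its other probe, and Mef2a and Mef2c were not called. Of the deacetylases, Hdac5 was lower, Hdac4 was higher by its brighter probe and lower by its other probe, and Hdac9 was not called. The same 3 of 6 measured members were called in mutant and in WT mice, each in the same direction. A gene was called at a limma p under 0.05 after Benjamini-Hochberg adjustment over all genes. The share of all genes called was 41.3% in the mutant and 43.3% in WT, so 3 of 6, or 50%, lies near the background. By direction, 22.6% of all genes were higher and 18.7% lower in the mutant after learning, and 25.1% were higher and 18.2% lower in WT. For each called member, the place of its difference among those of all genes is given below.

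**Figure D1:**
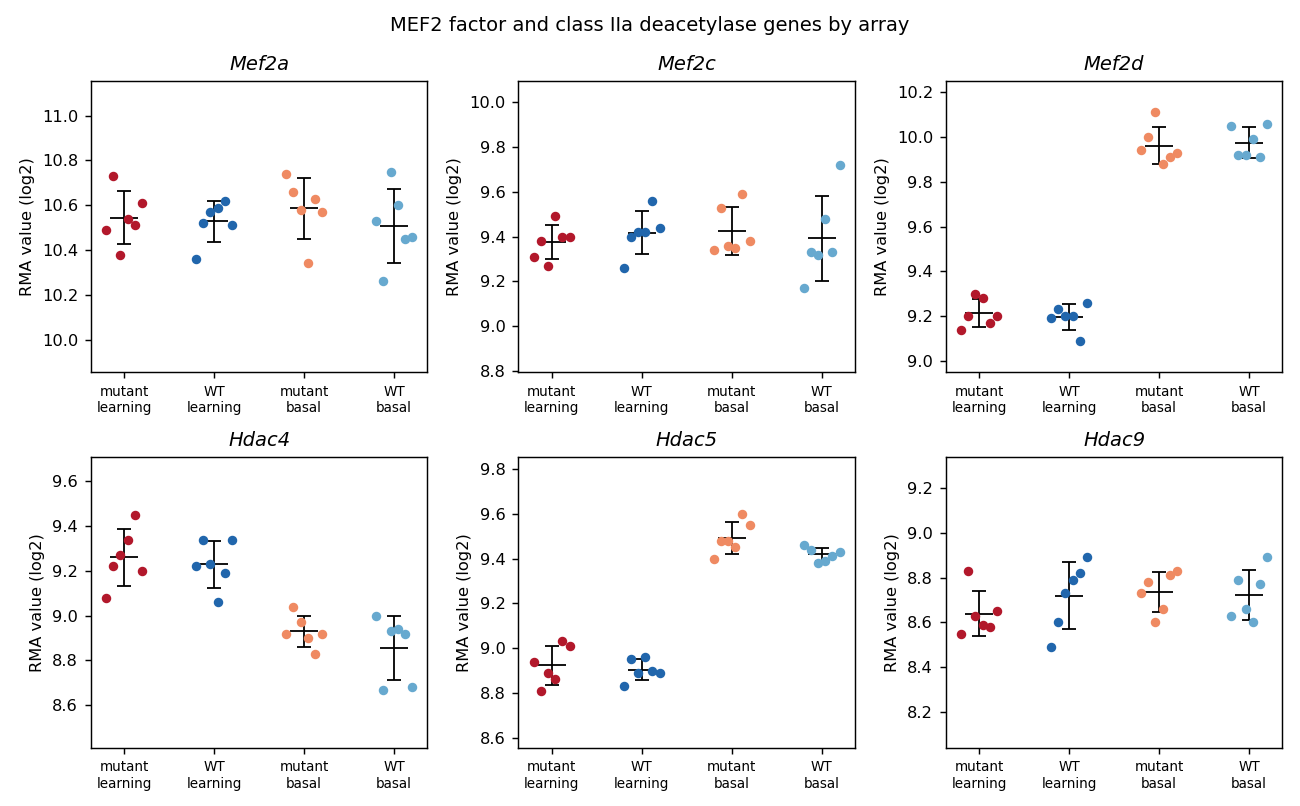
RMA values (log2, y axis) of the 6 measured members on each array, by group along the x axis. Points are arrays, horizontal marks are means and bars are SD (n = 6). Each panel spans 1.3 log2 units. By the probe with the highest mean, Mef2d and Hdac5 are lower and Hdac4 is higher in both learning groups than in both basal groups, with no overlap.

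Mef2d, the MEF2 factor best known as a survival factor in neurons, had a lowest, median and highest log2 value of 9.14, 9.20 and 9.30 in mutant learning arrays, against 9.88, 9.93 and 10.11 in mutant basal arrays. The WT values were 9.09, 9.20 and 9.26 after learning against 9.91, 9.95 and 10.06 at basal. Every learning array lay below every basal array. By this brighter of its 2 probes, Mef2d fell to 59.6% of the basal level in the mutant (difference −0.75, 95% interval −0.83 to −0.66, adjusted p = 1.45e-14). In WT the same probe fell to 58.3% (−0.78, −0.86 to −0.69, adjusted p = 7.86e-15). A two-sided exact permutation test, over every division of the 12 arrays into 2 groups of 6, gave p = 0.00216 in each genotype, the smallest possible. Averaged over genotypes the difference was −0.76, and 99.8% of all genes had a higher one (rank 34 from the lowest of 19938).

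Hdac5, a class IIa deacetylase abundant in forebrain neurons, also fell. It had 8.81, 8.91 and 9.03 in mutant learning arrays (lowest, median and highest) against 9.40, 9.48 and 9.60 in mutant basal arrays. In WT it had 8.83, 8.90 and 8.96 after learning against 9.38, 9.42 and 9.46 at basal. The learning and basal arrays again did not overlap, and the WT basal arrays were the tightest group, with an SD of 0.03. Hdac5 fell to 67.3% of basal in the mutant (−0.57, 95% interval −0.65 to −0.49, adjusted p = 2.08e-12) and to 69.9% in WT (−0.52, −0.60 to −0.43, adjusted p = 1.66e-11). The exact permutation p was 0.00216 in each. Averaged over genotypes the difference was −0.54, with 98.5% of all genes above it.

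Hdac4, a class IIa deacetylase that in mice is needed for learning and memory, was higher after learning by its brighter probe. That probe had 9.08, 9.24 and 9.45 in mutant learning arrays against 8.83, 8.92 and 9.04 in mutant basal arrays. The WT values were 9.06, 9.23 and 9.34 after learning against 8.67, 8.93 and 9.00 at basal. The groups did not overlap, though WT basal arrays 2 (8.67) and 6 (8.68) lay well below the other 4. The difference was 0.33 in the mutant (95% interval 0.20 to 0.45, 1.25-fold, adjusted p = 6.54e-05) and 0.37 in WT (0.25 to 0.50, 1.29-fold, adjusted p = 1.10e-05), with an exact permutation p of 0.00216 in each. Averaged over genotypes it was 0.35, and 8.15% of all genes had a higher difference.

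Hdac4 and Mef2d are the 2 members with more than 1 probe, and in both the probes went in opposite directions. The other Hdac4 probe had 8.12, 8.24 and 8.30 in mutant learning arrays against 8.50, 8.56 and 8.62 in mutant basal arrays. The WT values were 8.21, 8.27 and 8.41 after learning against 8.43, 8.56 and 8.60 at basal. It was thus lower in every learning array than in every basal array of the same genotype, by −0.33 in the mutant (adjusted p over all 35511 probes 7.59e-07) and −0.26 in WT (adjusted p = 2.01e-05). The other Mef2d probe had 7.37, 7.67 and 7.94 in mutant learning arrays against 7.06, 7.13 and 7.36 in mutant basal arrays. In WT it had 7.55, 7.81 and 7.97 after learning against 7.02, 7.24 and 7.41 at basal. It was higher after learning by 0.47 in the mutant (adjusted p = 0.000371) and by 0.52 in WT (adjusted p = 0.000129), again without overlap.

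In the platform annotation, the brighter Mef2d probe is matched to 1 curated RefSeq mRNA and the other to 0, with 2 cDNA records. For Hdac4 it is the other way round. The brighter probe, which rose, is matched to 0 curated mRNAs, and the other, which fell, to 1. Each of these 2 Hdac4 probes is also matched to 2 predicted models and 1 other cDNA record. The position of the probes along each gene was not used here, so which transcripts or parts of them moved was not tested. With the probes of a gene averaged, Hdac4 differed by 0.00 in the mutant (adjusted p = 0.988) and 0.06 in WT (adjusted p = 0.36). Mef2d then differed by −0.14 (adjusted p = 0.0391) and −0.13 (adjusted p = 0.0487). Such disagreement was uncommon: averaged over genotypes, 63 genes, or 6.31% of those with several probes of their own, had called probes in both directions, or 12.1% of the 519 with at least 2 called probes.

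**Figure D2:**
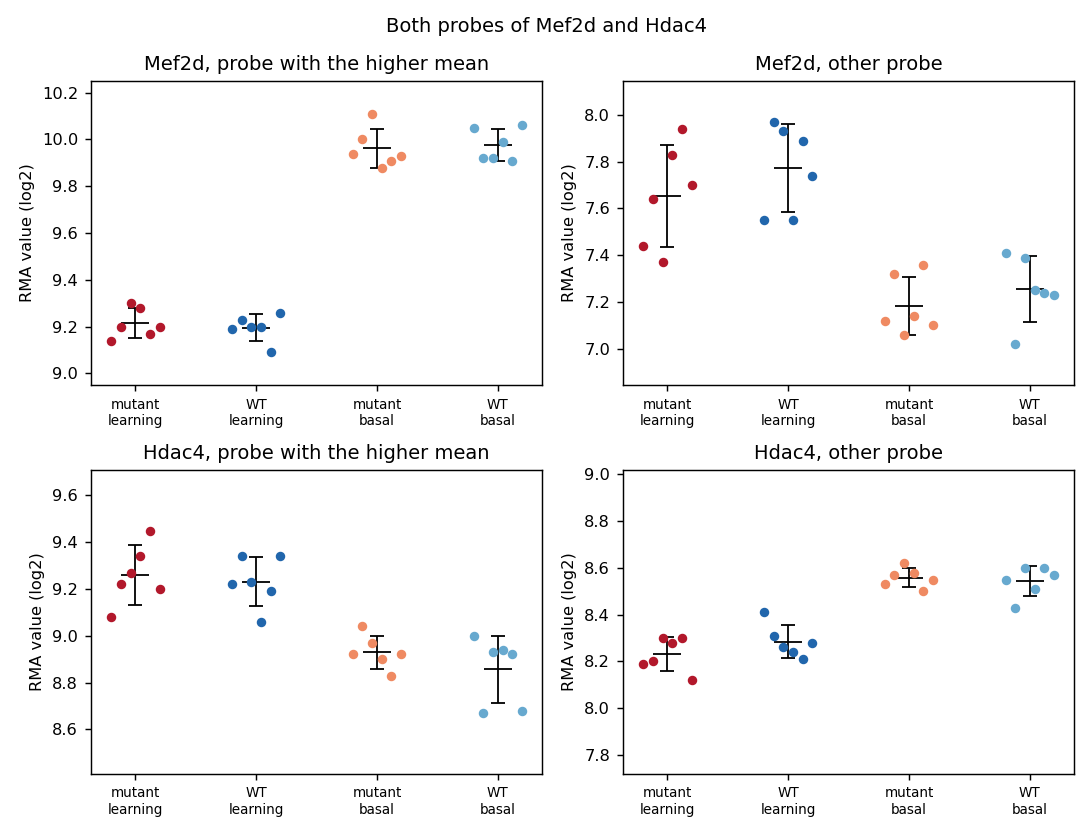
RMA values (log2, y axis) of both probes of Mef2d (top) and Hdac4 (bottom), by group along the x axis. Points are arrays, horizontal marks are means and bars are SD (n = 6), and each panel spans 1.3 log2 units. In each gene 1 probe is lower and the other higher after learning, in both genotypes; levels of different probes are not comparable.

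Mef2a and Mef2c, which encode MEF2 factors present in many forebrain neurons, did not pass the test. Mef2a had 10.38, 10.53 and 10.73 in mutant learning arrays against 10.34, 10.60 and 10.74 in mutant basal arrays. The WT values were 10.36, 10.55 and 10.62 after learning against 10.26, 10.50 and 10.75 at basal. The 4 groups overlapped throughout, and the difference was −0.04 in the mutant (95% interval −0.18 to 0.09) and 0.02 in WT (−0.12 to 0.15). Mef2c, which is also expressed in microglia and endothelial cells, had 9.27, 9.39 and 9.49 in mutant learning arrays against 9.34, 9.37 and 9.59 in mutant basal arrays. In WT it had 9.26, 9.42 and 9.56 after learning against 9.17, 9.33 and 9.72 at basal. Its difference was −0.05 in the mutant (−0.18 to 0.09) and 0.02 in WT (−0.11 to 0.16), and WT basal arrays were the most spread, with array 6 at 9.72.

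Hdac9, which also gives rise to a short form without the catalytic domain that still represses MEF2, had 8.55, 8.61 and 8.83 in mutant learning arrays against 8.60, 8.75 and 8.83 in mutant basal arrays. The WT values were 8.49, 8.76 and 8.89 after learning against 8.60, 8.72 and 8.89 at basal. The difference was −0.10 in the mutant (95% interval −0.23 to 0.03, adjusted p = 0.235) and −0.01 in WT (−0.13 to 0.12, adjusted p = 0.958). For these 3 genes the intervals leave out a fall as large as that of Mef2d or Hdac5 but not small shifts.

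Hdac7, the remaining class IIa gene, known mostly from endothelial cells and thymocytes, was lower after learning. It had 6.86, 6.95 and 7.35 in mutant learning arrays against 7.16, 7.38 and 7.48 in mutant basal arrays, which overlapped at mutant learning array 3. In WT it had 6.76, 6.92 and 7.07 after learning against 7.25, 7.31 and 7.58 at basal, without overlap. The difference was −0.34 in the mutant (adjusted p = 0.000926; exact permutation p = 0.00866) and −0.47 in WT (adjusted p = 1.37e-05; exact permutation p = 0.00216). The mean of 6 endothelial markers ranged over 7.41 to 7.67 in mutant learning against 7.75 to 7.93 in mutant basal arrays, and 7.54 to 7.77 in WT learning against 7.73 to 7.85 in WT basal arrays. Of the 6, 4 were called lower in the mutant, 2 in WT and 4 averaged over genotypes, with 0 higher, and the WT ranges overlapped. Their part in the Hdac7 result was not tested. In bulk tissue, fewer cells of a type and less RNA per cell cannot be told apart.

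Neuronal markers were measured beside Mef2d and Hdac5. The mean of 7 general neuronal markers ranged from 11.02 to 11.08 in mutant learning against 11.13 to 11.25 in mutant basal arrays, and from 11.00 to 11.13 in WT learning against 11.06 to 11.23 in WT basal arrays. Averaged over genotypes 2 of them were called higher and 3 lower, with a median difference of −0.03. Of 6 CA1 markers, 1 was called higher and 4 lower (median −0.31), with means of 9.58 to 9.67 in mutant learning and 9.84 to 9.92 in mutant basal arrays, and of 9.63 to 9.75 in WT learning and 9.82 to 9.99 in WT basal arrays. The part of the CA1 markers in the results was not tested. The mean of 9 choroid plexus markers, a tissue next to the hippocampus, varied widely, from 6.14 to 7.25 in mutant learning, 6.16 to 6.55 in WT learning, 6.72 to 7.36 in mutant basal and 6.08 to 7.32 in WT basal arrays. With that mean as a covariate, or without WT basal arrays 4, 5 and 6, the count of called members stayed at 3 in each genotype.

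**Figure D3:**
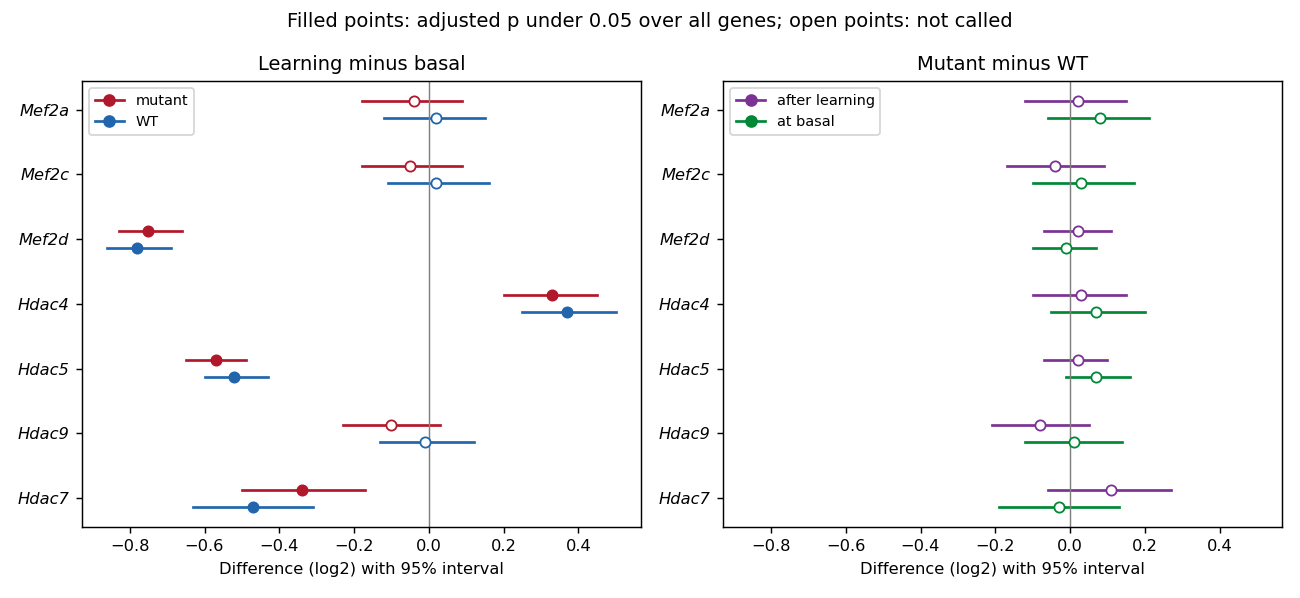
Differences (log2, x axis) of the 6 measured members and Hdac7 (y axis) between learning and basal in each genotype (left) and between mutant and WT in each state (right). Bars are 95% intervals from limma, filled points passed the test over all genes and open points did not. By the brighter probe of each gene, Mef2d, Hdac5 and Hdac7 lie to the left and Hdac4 to the right in both genotypes, and all genotype intervals include 0.

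No member passed the test between genotypes. At basal, 0 of 6 were called, against 0.1% of all genes (0.0451% higher and 0.0552% lower in the mutant). The unadjusted limma p was under 0.05 for 0 members. The differences lay between −0.01 and 0.08 and their 95% intervals within −0.12 to 0.21. The lowest p was that of Hdac5, at 9.49 ± 0.07 in the mutant and 9.42 ± 0.03 in WT (SD, n = 6 each; difference 0.07, interval −0.01 to 0.16, unadjusted p = 0.0833, adjusted p = 1). For Hdac5 the unadjusted p of the exact permutation test was 0.039, and it was the 1 member of 6 under 0.05 by that test. After learning, 0 of 6 were called, against 0.0752% of all genes (0.015% higher and 0.0602% lower in the mutant), with 0 at an unadjusted p under 0.05 by either test, and the intervals lay within −0.21 to 0.15.

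Averaged over both states, 0 of 6 members and 0.391% of all genes were called, and the member intervals lay within −0.13 to 0.14. In the interaction, which asks whether the learning difference of the mutant departs from that of WT, 0 of 6 members and 0 of all 19938 genes were called by limma. There, 0 members and 510 genes had an unadjusted p under 0.05. The interaction was 0.03 for Mef2d (95% interval −0.09 to 0.15), −0.06 for Hdac5 (−0.17 to 0.06) and −0.04 for Hdac4 (−0.22 to 0.13). A shrinking of the learning difference in the mutant by more than 0.15 for Mef2d or 0.06 for Hdac5 lies outside these intervals.

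Among themselves the members varied loosely within groups. Correlations of deviations from the group means over 24 arrays ran from −0.35 (Hdac4 and Hdac9) to 0.51 (Mef2c and Hdac9), and that of Mef2d and Hdac5, which fell together, was −0.10. The genes with the most similar deviations, among 9463 with a mean log2 of at least 7, were Car10 (r = 0.93), Rtca (0.90) and Prkacb (0.90) for Mef2c. For Mef2a they were Apba2 (0.87), Gabra5 (0.81) and Efl1 (0.79), and for Hdac4 they were Rnpep (0.82), Cep78 (0.79) and Lpin2 (0.79). For Hdac9 they were Exoc2 (0.77), Acox3 (0.75) and Pcnt (0.71). The likeness was lower for Hdac5 (Samd14 0.72, Gnai2 0.71, Tomm5 0.71) and Mef2d (Setd1a 0.69, Tmem64 0.68, Popdc3 0.66). Arrays share their dissection and processing, so these values describe the 24 arrays alone.

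Genes that act on or with these proteins were counted in the learning comparison averaged over genotypes, where 54.8% of all genes were called (31.7% higher and 23.1% lower) and the median difference was 0.03. Of the called genes 57.9% were higher, but 49.5% after a second quantile normalization, so the excess of higher calls changed with the scaling. It also changed at the same scaling: in the mutant the share was 54.8%, but 50% among genes with a mean log2 of at least 6. Differences here are on the log2 scale. Of 7 other zinc-dependent deacetylases, 5 were called. Hdac11, a neuron and oligodendrocyte deacetylase, fell by 0.52 (0.697-fold, adjusted p = 1.50e-13), with 8.96 ± 0.10 in mutant learning and 9.50 ± 0.09 in mutant basal arrays, and 8.93 ± 0.06 in WT learning and 9.43 ± 0.08 in WT basal arrays. Hdac6, a tubulin deacetylase, fell by 0.18 and Hdac1, a nuclear class I enzyme, fell by 0.17, while Hdac8 rose by 0.20. Hdac3, the enzyme through which class IIa complexes deacetylate histones and a gene named after its values were seen, differed by −0.03 (95% interval −0.09 to 0.02).

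Of 20 measured kinases that phosphorylate class IIa deacetylases or act just upstream, 4 rose and 8 fell (median −0.03). Mark2, a microtubule-affinity regulating kinase, fell by 0.82 (0.568-fold, adjusted p = 1.12e-16), a fall its second probe shared (−0.56). Camkk2, which activates CaM kinases, fell by 0.34 and Camk2a, the main postsynaptic CaM kinase, by 0.27. Camk4, a nuclear CaM kinase, rose by 0.23, Stk11, which activates the salt-inducible kinases, by 0.22 and Prkaa1, an AMP-activated kinase subunit, by 0.10. A list of 8 genes held kinases that phosphorylate MEF2 (ERK5, p38 and CDK5) and their activators, of which 0 rose and 4 fell (median −0.06). Of the kinases, Mapk7, which encodes ERK5, fell by 0.51 (adjusted p = 1.96e-11) and Mapk11, a p38 kinase, by 0.22. Of the activators, Map2k5, which acts on ERK5, fell by 0.41 and Cdk5r1, the p35 activator of CDK5, fell by 0.07 (adjusted p = 0.0446); Cdk5r1 is named after its values were seen.

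Of 9 calcineurin genes and regulators, 2 rose and 4 fell (median −0.07). The catalytic subunit Ppp3cb fell by 0.30 (adjusted p = 5.92e-12), Cabin1, which binds both calcineurin and MEF2, by 0.25 and Ppp3ca by 0.09. The regulatory subunit Ppp3r1 rose by 0.22 and the inhibitor Rcan1 by 0.11. Of 7 genes for 14-3-3 proteins, 1 rose and 5 fell (median −0.12). Ywhae fell by 0.51, with 11.60 ± 0.04 in mutant learning and 12.12 ± 0.04 in mutant basal arrays, and 11.60 ± 0.05 in WT learning and 12.10 ± 0.01 in WT basal arrays (adjusted p = 4.82e-19). Ywhah fell by 0.18 and Ywhab by 0.12, while Ywhaq rose by 0.46. Ywhaz had a called fall of 0.06 by its brighter probe, while its other probe was higher by 0.20 (adjusted p = 0.000516); it is named after its values were seen.

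Of 11 measured corepressors and coactivators, 2 rose and 5 fell (median −0.11). The acetyltransferase Crebbp fell by 0.44 (adjusted p = 8.88e-13), the MEF2 coactivator and arginine methyltransferase Carm1 by 0.36 and the corepressor Ctbp1 by 0.28. Tbl1xr1, a part of the NCoR corepressor complex, rose by 0.39 by its brighter probe, and its second probe differed by −0.02 (adjusted p = 0.529). Ankra2, an ankyrin-repeat protein that binds class IIa deacetylases, rose by 0.33.

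Of 13 measured genes that MEF2 is known to act on in neurons or other cells, 10 rose and 0 fell averaged over genotypes (median 0.30). In the mutant alone, 10 were called higher and 1 lower. The lower one was Pcdh10, named after its values were seen (−0.15, adjusted p = 0.0285), which differed by 0 in WT (adjusted p = 0.967). Arc, which removes AMPA receptors from synapses, rose by 0.93 (1.91-fold, adjusted p = 9.67e-14), with 10.02 ± 0.08 in mutant learning and 9.03 ± 0.13 in mutant basal arrays, and 9.92 ± 0.14 in WT learning and 9.04 ± 0.28 in WT basal arrays. The neurotrophin gene Bdnf rose by 0.57 (1.49-fold) and the orphan receptor gene Nr4a1 by 0.75 (1.68-fold). Many genes on this list are also induced by activity through CREB and other factors, so its counts do not speak for MEF2 alone. Of the 16 genes on the list, 13 had promoter stretches, and these need not be the 13 measured. The MEF2 element was in 2 of them, Jun and Nr4a2, which are named here for that match, against 2.92% of all stretches. TGACG was in 7 of the 13, against 17.8% of all stretches. A gene was counted if any of its stretches matched, so the gene counts and the shares of stretches are unlike units. The part of these matches in the rises was not tested.

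**Figure D4:**
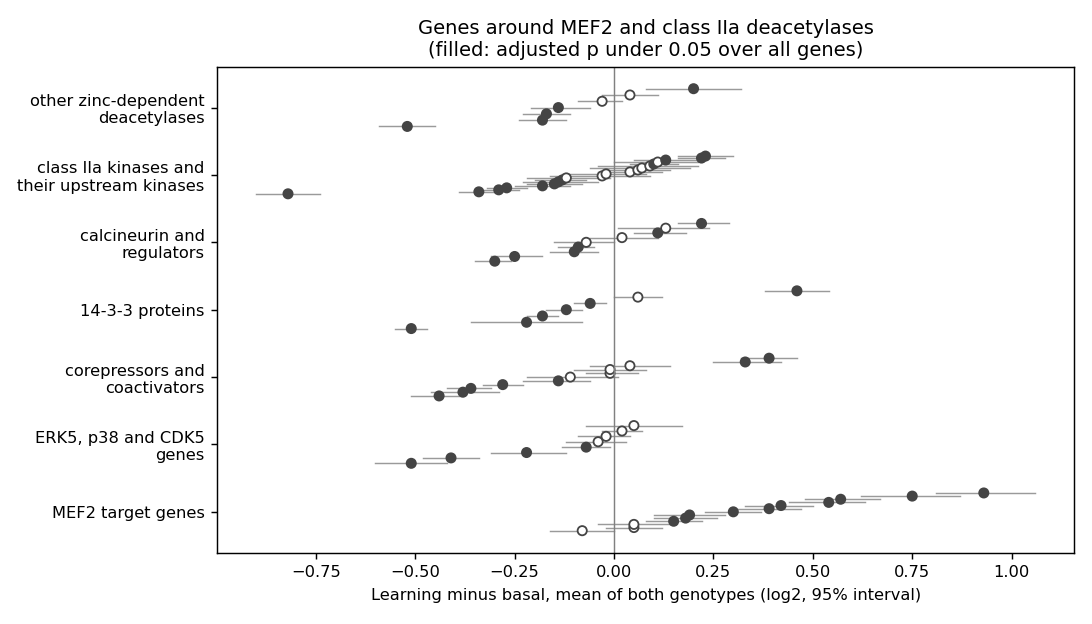
Learning minus basal averaged over genotypes (log2, x axis) for each measured gene of 7 lists (y axis). Points are genes, bars are 95% intervals from limma, and filled points passed the test over all genes. The 10 called MEF2 target genes lie to the right of 0, while 8 of the 12 called class IIa kinases and 4 of the 4 called genes for ERK5, p38, CDK5 and their activators lie to the left.

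Between genotypes, averaged over states, 2 of the 75 measured genes of these 7 lists (2.67%) were called, against 0.391% of all genes, and both are named after their values were seen. Hdac10, a polyamine deacetylase, was lower in the mutant by −0.17 (adjusted p = 0.0355), at 6.77 ± 0.10 in mutant learning and 6.98 ± 0.08 in WT learning arrays and at 6.94 ± 0.03 in mutant basal and 7.08 ± 0.06 in WT basal arrays. That call ended in 13 of the 24 runs that left out 1 array (adjusted p up to 0.0732, with differences of −0.16 or −0.17). Jun was lower by −0.19 (adjusted p = 0.0154). Its difference was −0.19 with the choroid plexus covariate (adjusted p = 0.0534) and −0.20 without WT basal arrays 4, 5 and 6 (adjusted p = 0.0514), so the call was lost at about the same size. In the same comparison 4 of 8 dentate granule cell markers were called lower in the mutant and 0 higher (median −0.20). Their mean ranged over 8.06 to 8.17 in mutant learning and 8.14 to 8.39 in WT learning arrays, and over 8.06 to 8.22 in mutant basal and 8.21 to 8.38 in WT basal arrays. The part of these markers in the Hdac10 and Jun results was not tested.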

How the data were processed

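The data are 24 array measurements of hippocampal RNA, 6 in each group of genotype and state. The deposited log2 values were made by the authors with RMA, per the submitters' processing notes, from biotin-labelled single-stranded DNA, per the labels' protocols; no version of RMA is named there. Values were not transformed further, and signal over background was not used. The number of arrays limits the precision. Of 35511 probes, 21789 carry 1 symbol in the platform annotation of 2016, 1621 several and 12101 none. A gene was taken as its single-symbol probe with the highest mean, which left 19938 genes, with 0 symbols updated through Entrez identifiers. In R 4.3.3, limma 3.58.1 fitted 1 mean per group over all arrays (20 residual and 29.0 moderated degrees of freedom, mean-variance trend), two-sided, with Benjamini-Hochberg adjustment over all genes and a threshold of 0.05. The method was tested on simulated data, in which the noise was independent and far fewer genes changed than were called here between states. That test does not cover variation that arrays share. Promoter sequences and positions are from RefSeq (GRCm38.p6).

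The members and gene lists were chosen with earlier results of these data known. Named are the members, Hdac7, Foxo6, and in each list up to 3 called genes per direction with the smallest adjusted p in the learning comparison averaged over genotypes. The 3 genes most like each member were taken by Pearson correlation of deviations from group means. Others are said to be named after their values were seen. The alternatives were other variance models, array weights, centring and normalization, a filter on dim genes, other choices of probe, only the compared groups, replicate number as a block, choroid plexus markers as a covariate, and arrays left out.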

Additional observations from a re-analysis of the deposited data

Results flagged for a closer look

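Within groups, 40 sets of 6 arrays (the 6 measured members, Hdac7, Foxo6 and the other probes of Mef2d and Hdac4, in 4 groups each) were searched for an array that stands far from the rest, and 2 were found, where chance gives about 2 (1 in 20). Hdac9 was 8.83 in mutant learning array 2, against 8.55 to 8.65 in the other 5 arrays of that group. Foxo6 was 6.59 in mutant basal array 6, against 6.18 to 6.32 in the other 5, and stayed below the lowest WT basal value of 6.78.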

How the results depend on the processing

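The count of called members was 3 in each learning comparison and 0 in each genotype comparison and in the interaction under all alternatives run, except that with the probes of a gene averaged it was 2 in each learning comparison, because Hdac4 was lost (0.03 averaged over genotypes, adjusted p = 0.49). Leaving out each of the 24 arrays gave 3 and 0 throughout, and Mef2d averaged over genotypes then ranged from −0.77 to −0.75, Hdac5 from −0.55 to −0.53 and Hdac4 from 0.33 to 0.37. Of 1494 values of the members under 36 alternatives, 1491 kept their side of the threshold, and 63 values that were not called changed sign. These values include the genotype comparisons and the interaction, where no member was called. They rest on the brighter probe or the mean of the probes. The other probes of Mef2d and Hdac4, which were called in the opposite direction after learning, are not among them. Averaged over genotypes, the called genes of the lists stayed within 1.5 times the counts given. Same-numbered arrays of compared groups showed no clear common deviation (correlations from −0.30 to 0.26, best with their own number in 0 or 1 of 6 arrays). With 6 pairs in each comparison, these values cannot show whether the numbers pair the samples. With the replicate number as a block, 3 members were called in each genotype after learning and 0 between genotypes, genes called at basal between genotypes were 14 against 20, and the Hdac10 call was lost (−0.17, adjusted p = 0.0714). Hdac10 was also lost with the choroid plexus covariate (−0.15, adjusted p = 0.162) and without WT basal arrays 4, 5 and 6 (−0.15, adjusted p = 0.236), against −0.17. Over all genes, the 20 calls between genotypes at basal became 7 without the trend, 51 with array weights, 11 with only the compared groups, 10 without those 3 WT basal arrays and 6 at the lowest without 1 array. The 15 calls after learning became 9 without the trend or with array weights, 28 with every probe, 7 with only the compared groups and 8 at the lowest without 1 array. The share of those 15 that were higher, 20%, became 0% with only the compared groups, 9.1% with the block, 35.0% after a second quantile normalization and 42.9% with every probe. The share at basal, 45%, became 28.6% without the trend, 56.9% with array weights and 16.7% at the lowest without 1 array. After learning against basal, a second quantile normalization put the higher share at 49.2% in the mutant, against 54.8%, and at 49.7% in WT, against 57.9%. Keeping only genes with a mean log2 of at least 6 put that share at 50% in the mutant. The 78 averaged over states became 44 with the choroid plexus covariate and 39 without the 3 arrays. The causes were not tested. Dim probes were not judged against background.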
